A study of Mus musculus with 12 samples.

Results

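The comparison concerned CD115+ cells labelled as monocytes, taken from the peripheral blood and from the spleen of intact C57BL/6 male mice. The members were chosen by their titles: 3 libraries of blood monocytes and 3 libraries of splenic monocytes from animals whose spleen and liver were both left in place, 6 of the 12 libraries of the series. Each library held cells pooled from 5 mice, so the n of 3 per tissue counts pools and not animals, and whether the blood and the spleen of a pool came from the same mice is not given in the sources used here. The other 6 libraries were blood and splenic CD115+ monocytes 24 h after 70% liver resection, again 3 per tissue with the spleen in place, and they entered here only to share the estimate of spread and for the last comparison. CD115 is the receptor for macrophage colony-stimulating factor, the product of Csf1r. Cells of both tissues were taken through a density gradient and magnetic beads against CD115, but the spleen was first broken up mechanically, digested with collagenase and cleared of red cells by lysis, and no such steps are described for the blood. Tissue and handling therefore cannot be told apart in this design. The CD115 bead selection is also the limit of the model, since no later sort for other lineage markers is described.

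Monocytes are blood phagocytes that leave the bone marrow, and the mouse spleen keeps a further store of them in its red pulp that can be released into the circulation. The same red pulp holds resident macrophages that take up worn red cells, recycle their iron and depend on the transcription factor SpiC, and many macrophages besides monocytes carry CD115. Macrophages of the peritoneal and pleural cavities are a separate resident type, driven by GATA6 and retinoic acid, and are known for lubricin, factor V and 12/15-lipoxygenase.

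The intact splenic libraries held 39275398, 39307572 and 39171472 estimated counts and the blood libraries 44450626, 42359456 and 43828400, so that 3 counts corresponded to between 0.0626 and 0.0826 CPM (counts relative to the scaled library size). The blood libraries did not resemble each other equally. Blood libraries 1 and 2 correlated at r = 0.984 across features on the log2(CPM + 1) scale, a correlation over features that are not independent replicates, while blood library 3 reached 0.919 with each of them and the splenic libraries 0.979 to 0.988 among themselves. In blood library 3, 144 features stood at 10 CPM or more and at over 10 times the highest of the other 5 intact libraries, against 0 to 2 such features in each other intact library. They included Notch1, a developmental receptor, at 1639 CPM against 132 and 124 CPM in blood libraries 1 and 2, and Dntt, the terminal transferase of immature lymphocytes, at 623 CPM against 7.27 and 3.52 CPM. Of the 144, 28 were called. The 22 genes of the cell cycle list summed to between 478 and 3839 CPM over the blood libraries and to between 594 and 987 CPM over the splenic ones, with the highest sum in blood library 3, and none of the 22 was called. Haemoglobin transcripts took 33.1%, 25.6% and 13.2% of the gene counts in blood libraries 1 to 3 and 0.10%, 0.0814% and 0.363% in splenic libraries 1 to 3. The means were 24.0% ± 10.1 (SD, n = 3) in blood and 0.182% ± 0.157 (SD, n = 3) in spleen, a difference of 23.8 percentage points that an exact two-sided permutation test gave p = 0.1, the smallest value that 3 against 3 libraries allow. Leaving haemoglobin genes out moved the median log2 difference of all features from -0.02 to 0.10.

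Differences are given below as log2 of blood over spleen with the standard error (SE), so that positive values are higher in blood, and levels as CPM on scaled library sizes. A feature was called where the edgeR quasi-likelihood test gave a Benjamini-Hochberg adjusted p under 0.05 and the difference was beyond 1 on the log2 scale in either direction. Of 20135 features tested, 1480 were called, or 7.35%, with 778 higher in blood (3.86%) and 702 higher in spleen (3.49%), and 5087 had an unadjusted p under 0.05. The counts of list members below are to be read beside the shares of 7.35%, 3.86% and 3.49%. Differences beyond 3 on the log2 scale were seen for 359 features called higher in blood and 291 called higher in spleen. The 3 blood and the 3 splenic libraries did not overlap for 1475 of the called features, beside 34.5% of all features tested. The count depended on single libraries: it fell to 531 without splenic library 1, 615 without splenic library 2, 755 without splenic library 3 and 828 without blood library 1, and it was 1494 without blood library 3, of which 1073 were among the 1480. Among the 1480, 443 (29.9%) were called in the same direction in each of the 12 fits that left out 1 of the 12 libraries, 266 of those higher in blood and 177 of those higher in spleen. These are referred to as held calls, library numbers without further note are those of intact mice, and the genes named as called below are held unless stated otherwise. RNA from sorted pools gives the average over all cells in the pool, so a lower value may be fewer cells of a type or less RNA per cell, and these cannot be told apart here.

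**Figure D1:**
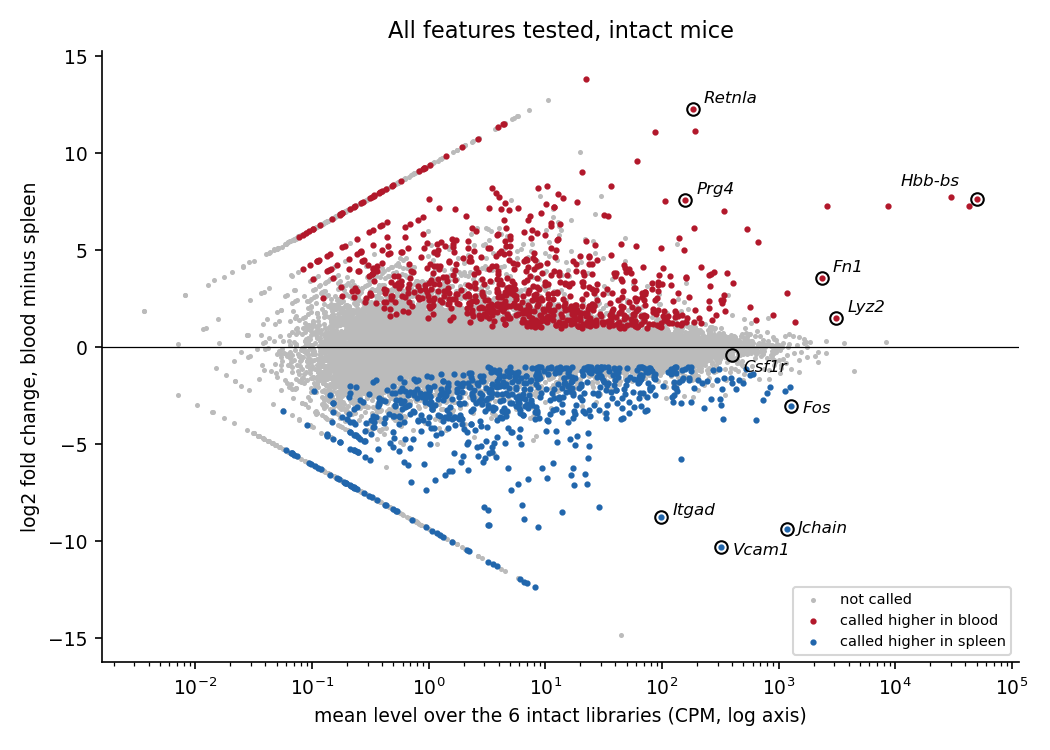
Mean level over the 6 intact libraries (CPM, log axis) of each tested feature against its log2 fold change of blood over spleen. Features called higher in blood (778) lie above and those called higher in spleen (702) below the band around 0, and the diagonal edges are features at or near 0 counts in 1 tissue, whose fitted difference depends on the prior count.

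The 4 markers given for the comparison were among the genes that differed most. Earlier results of these data were known when the members were chosen, so this rank may follow from the choice. Prg4, which encodes lubricin, a lubricating glycoprotein of joints and serous linings, stood at 508, 146 and 285 CPM in blood libraries 1 to 3 and at 1.77, 1.94 and 1.19 CPM in splenic libraries 1 to 3. The tissues did not overlap, and the difference was 7.58 (SE 0.50, adjusted p = 0.000154), between 7.07 and 8.0 when any single library was left out. Serpinb2, the inhibitor of plasminogen activators also called PAI-2, measured 32.0, 12.2 and 22.5 CPM in blood and 0.253, 0.230 and 0.298 CPM in spleen. Every blood library was again above every splenic library, with a difference of 6.40 (SE 0.48, adjusted p = 0.000240). Vcam1, the adhesion molecule that binds integrin α4β1, ran the other way, at 0.413, 0.514 and 0.568 CPM in blood and 574, 855 and 506 CPM in spleen. Its difference of -10.32 (SE 0.79, adjusted p = 0.000240) stayed between -10.38 and -9.96 without any single library. Itgad, the CD11d integrin subunit known from splenic red pulp macrophages, measured 0.523, 0.540 and 0.328 CPM in blood and 136, 222 and 235 CPM in spleen. Its difference was -8.74 (SE 0.60, adjusted p = 0.000175), again without overlap, and the values of all 4 genes were similarly far apart without blood library 3, at 7.75, 6.50, -10.33 and -8.43 for Prg4, Serpinb2, Vcam1 and Itgad.

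**Figure D2:**
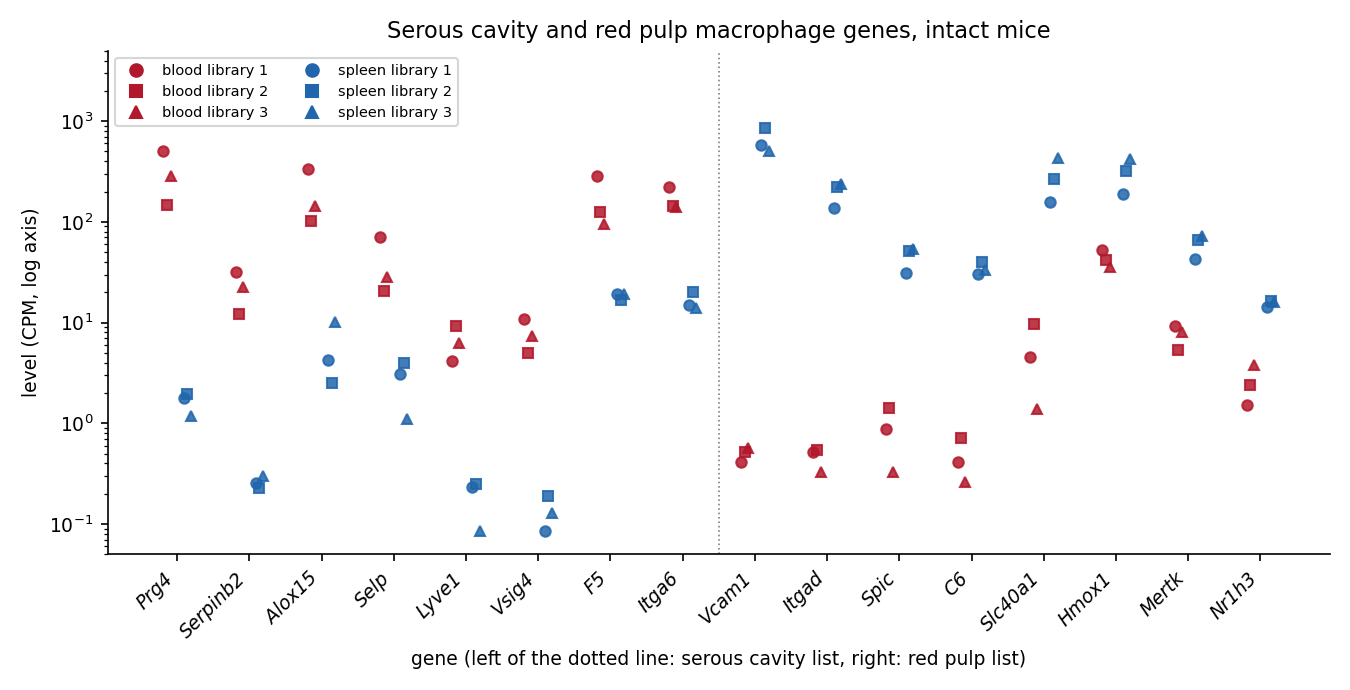
Level (CPM, log axis) of 8 serous cavity genes, left, and 8 red pulp genes, right, with 1 point for each intact library, blood in red and spleen in blue. The left-hand genes, Prg4 and Serpinb2 among them, were higher in each blood library and the right-hand ones, Vcam1 and Itgad among them, in each splenic library. The genes drawn were picked from the held calls of each list, so this separation follows from the choice. Not called were 8 of 24 tested serous cavity genes and 13 of 23 tested red pulp genes, and none of those is drawn.

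Of the 4 markers, Serpinb2 had a promoter in the RefSeq table used here (GRCm38.p6, running from 250 bases before to 50 bases after an annotated start), with 2 start sites on the plus strand of chromosome 1. The window of the first is printed to show the start region of a gene that separated the tissues, with the TATAAA element in capitals.
Serpinb2, chr1:107511173-107511472, plus strand: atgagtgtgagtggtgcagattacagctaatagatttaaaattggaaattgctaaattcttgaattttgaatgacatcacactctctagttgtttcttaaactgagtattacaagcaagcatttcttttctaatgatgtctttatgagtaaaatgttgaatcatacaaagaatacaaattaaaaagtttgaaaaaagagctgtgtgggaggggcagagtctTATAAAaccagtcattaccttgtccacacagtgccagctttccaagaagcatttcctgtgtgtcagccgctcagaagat
The TATAAA element began 29 bases before this start and 116 bases before the second, whose window is chr1:107511260-107511559. Among the motifs searched on both strands, none overlapping another in these windows, the GATA-type AGATAA lay 41 bases before the second start, and the PU.1-type GAGGAA and the AP-1-type TGACTCA had no match in either window. Of all 32851 promoters in the table, 13.6% held TATAAA, 11.2% AGATAA, 28.3% GAGGAA and 5.20% TGACTCA.

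Most genes tested from the list of serous cavity macrophages were called higher in blood. The list was fixed with earlier results of these data known and holds the markers Prg4 and Serpinb2. Of the 24 tested genes on that list, 16 were called higher in blood and 0 higher in spleen, beside 3.86% and 3.49% of all features. The median difference was 3.11 beside -0.02 over all features. The count was also 16 without blood library 3, and 12 of the calls were held. Summed over the list, the blood libraries reached 909 to 2242 CPM and the splenic libraries 324 to 409 CPM. Gata6, the transcription factor that defines these macrophages, was at 5.86, 2.85 and 3.78 CPM in blood and at 0.0210, 0.0835 and 0 CPM in spleen, with no overlap (difference 6.77, SE 0.77, adjusted p = 0.00178). Rarb, the retinoic acid receptor β, stood at 4.46, 5.52 and 3.52 CPM in blood and 0.589, 0.647 and 0.404 CPM in spleen (difference 3.03, SE 0.36, adjusted p = 0.00196). Alox15, the 12/15-lipoxygenase, measured 331, 103 and 142 CPM in blood against 4.27, 2.50 and 10.1 CPM in spleen (difference 5.09, SE 0.66, adjusted p = 0.00264). Surface genes with held calls, each without overlap, included Vsig4, a complement receptor of resident macrophages (5.82), and Lyve1, a hyaluronan receptor (5.09). Selp, the P-selectin of platelets and endothelium, and Itga6, the laminin-binding integrin α6, differed by 3.87 and 3.37, also without overlap. Not all surface genes of the list differed, and Icam2, an adhesion molecule, was among the 8 genes not called. Icam2 measured 40.3, 32.4 and 31.2 CPM in blood and 33.3, 36.1 and 34.4 CPM in spleen, so the tissues overlapped. The secreted and enzymatic members F5 (coagulation factor V), Ltbp1 (a binding protein of latent TGF-β) and Padi4 (a peptidylarginine deiminase) differed by 3.19, 4.69 and 2.12. The other 4 calls were not held, and were kept in 9 (Timd4), 10 (Garnl3), 11 (Naip1) and 8 (Cxcl13) of the 12 fits without 1 library. Timd4, a receptor for apoptotic cells, was 1.79 and lost its call without splenic library 2 (1.77), splenic library 3 (1.69) or blood library 1 (1.47), Garnl3 without splenic library 1 (2.32) or 2 (2.35), Naip1 without splenic library 2 (2.09), and the chemokine Cxcl13 without any of the splenic libraries or blood library 1.

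Some mesothelial genes, from the lining of the same cavities, were also called higher in blood, at low levels. Of 8 tested, 4 were called higher in blood and 4 were not called, and 3 of the calls were held, Krt8, Krt19 and Upk3b, and the list summed to 2.83 to 6.60 CPM in blood and 1.42 to 2.19 CPM in spleen. Krt19, an epithelial keratin, measured 0.330, 0.411 and 0.350 CPM in blood and 0 in each splenic library, so that it was at least 5.70-fold higher in blood when spleen was set to 3 counts per library. Upk3b, a mesothelial surface protein, was at 0.468, 1.16 and 0.961 CPM in blood with 3 counts or fewer in each splenic library, at least 13.5-fold higher. The part that mesothelial genes or cells have in the difference in cavity macrophage genes was not tested.

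Some genes of red pulp macrophages were called higher in spleen and none higher in blood. Their list was also fixed with earlier results known and holds the markers Vcam1 and Itgad. Of 23 tested, 10 were called higher in spleen, 0 higher in blood and 13 were not called, beside 3.49% and 3.86% of all features. The median difference was -1.49. Without blood library 3 the count was 9, and 8 of the 10 calls were held. The list summed to 1434 to 2099 CPM in blood and 2962 to 4312 CPM in spleen. Spic, the transcription factor on which red pulp macrophages depend, measured 0.881, 1.41 and 0.328 CPM in blood and 31.3, 51.6 and 53.3 CPM in spleen, with no overlap (difference -5.71, SE 0.60, adjusted p = 0.00129). Slc40a1, the iron exporter ferroportin, stood at 4.57, 9.76 and 1.38 CPM in blood against 157, 266 and 429 CPM in spleen (difference -5.76, SE 0.92, adjusted p = 0.00639). Hmox1, which degrades haem, measured 52.8, 42.3 and 35.5 CPM in blood and 188, 320.2 and 425 CPM in spleen (difference -2.84, SE 0.34, adjusted p = 0.00196). The libraries of the tissues were apart for each of these 3 genes. On the separate list of iron handling, 3 of 21 tested genes were called higher in spleen (Slc40a1, Hmox1 and Steap4), 1 higher in blood and 17 were not called, with a median of -0.13. The count in blood was near the 3.86% of all features called that way. The gene higher in blood was Slc48a1, a haem transporter, at 442, 310.4 and 159.9 CPM in blood and 63.3, 66.2 and 116 CPM in spleen (1.89, adjusted p = 0.0197), which was not called when splenic library 1, splenic library 2 or blood library 1 was left out. Steap4, a metalloreductase, was called only without blood library 2 or resected blood library 1 or 3, with values from -4.75 to -2.90 over the 12 fits. Mertk, a receptor for dying cells, measured 9.17, 5.40 and 8.15 CPM in blood and 42.8, 66.4 and 71.7 CPM in spleen (difference -2.99, SE 0.28, adjusted p = 0.000655). C6, a component of the terminal complement pathway, differed by -6.21 and Nr1h3, the oxysterol receptor LXRα, by -2.60. The related receptor Axl (-2.90, adjusted p = 0.0294) and the transcription factor Maf (-1.14, adjusted p = 0.0349) completed the 10 with Vcam1 and Itgad, but each lost its call in 9 of the 12 fits without 1 library. For Axl only the fits without resected splenic library 2, resected splenic library 3 or resected blood library 3 kept the call, and its value ran from -3.07 to -2.43 in the others. Maf was called only without resected splenic library 2 or 3 or blood library 1.

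Few of the genes that mark monocytes as such were called, beside 7.35% of all features tested. The counts on the core and classical lists were near that share. Csf1r, whose product was used for the selection, measured 467, 363 and 209 CPM in blood and 374, 459 and 525 CPM in spleen, so the tissues overlapped (difference -0.39, SE 0.32, adjusted p = 0.491). Of 20 monocyte core genes 1 was called, Lyz2, and of 15 genes of classical monocytes 1, Fn1, both higher in blood, with medians of -0.16 and -0.64 over the lists. Without blood library 3 these medians were 0.17 and -0.11, and Cebpa and Ccr2 were called higher in blood as well. The core list summed to 5180 to 11352 CPM in blood and 4964 to 5380 CPM in spleen. Lyz2, lysozyme M, measured 6802, 4511 and 2421 CPM in blood and 1616, 1622 and 1607 CPM in spleen, with no overlap (difference 1.5, SE 0.38, adjusted p = 0.0365), but its call was lost in 7 of the 12 fits, with values from 1.16 to 1.61. Those were the fits without any of the splenic libraries, resected blood libraries 1 or 2, or blood libraries 1 or 2. Fn1, fibronectin, stood at 6230, 3672 and 3051 CPM in blood and at 348, 452 and 301 CPM in spleen (difference 3.56, SE 0.67, adjusted p = 0.0130), a call lost without splenic library 1 (3.62) or 3 (3.53). Ly6c2, which gives classical monocytes their Ly6C, measured 77.0, 70.0 and 13.4 CPM in blood and 75.0, 75.8 and 76.1 CPM in spleen, so that blood libraries 1 and 2 lay around the splenic level and blood library 3 below it. Among 20 nonclassical genes, Spn was called higher in blood and Treml4 and Cd300e higher in spleen, none of them held. Spn, the sialophorin CD43, lost its call without any splenic library or blood library 1 or 2, Treml4 in 10 of the fits, with values from -2.47 to -1.67, and Cd300e in 11, with values from -1.70 to -0.94.

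**Figure D3:**
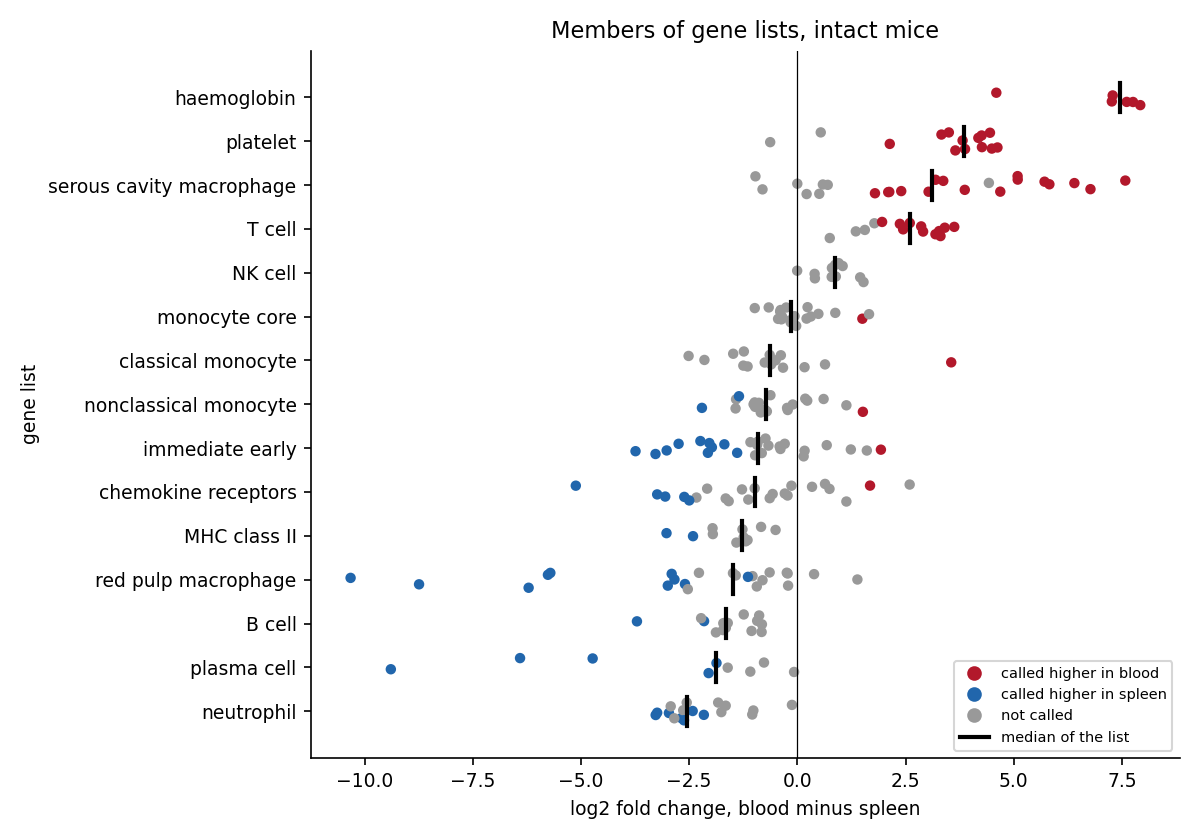
Log2 difference of blood over spleen for the genes of the lists described here, 1 point per tested gene, with the median of each list as a line, genes called higher in blood in red, those called higher in spleen in blue and the others in grey. Serous cavity, platelet and T cell genes lie mainly to the blood side (medians 3.11, 3.85 and 2.60) and red pulp, plasma cell and neutrophil genes to the spleen side (medians -1.49, -1.87 and -2.56).

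Adhesion genes were called in both directions, beside 3.86% of all features called higher in blood and 3.49% higher in spleen. The counts below of integrins in spleen and of immunoglobulin-superfamily molecules in blood were near these shares. Of 24 integrin subunits, Itga2b, Itga6 and Itgb1 were called higher in blood and Itgad higher in spleen, with a median of 0.03, and all 4 calls were held. Without blood library 3, Itga2, Itga4 and Itga9 were called as well, the last higher in spleen. Itgb1, the β1 subunit shared by most matrix-binding integrins, measured 383, 388 and 385 CPM in blood and 145, 151 and 147 CPM in spleen (difference 1.38, SE 0.14, adjusted p = 0.00107). Its libraries were nearly level within each tissue, in contrast to Itga2b, the platelet integrin αIIb, at 114, 81.4 and 30.5 CPM in blood and 7.53, 3.99 and 4.51 CPM in spleen (difference 3.82, adjusted p = 0.00362). Of 32 adhesion molecules of the immunoglobulin superfamily, 2 were called higher in blood and 7 higher in spleen, a count for spleen that fell to 3 without splenic library 2 or 3 or blood library 1 and to 4 without splenic library 1, resected splenic library 1 or 2, or resected blood library 1 or 2. Without blood library 3 the counts were 4 and 5. The held calls were Bcam (4.23), a laminin-binding glycoprotein, and Jam2 (4.58), a junctional adhesion molecule, in blood, and Vcam1, Dscam (-5.61) and Cadm1 (-3.23) in spleen. Bcam measured 24.7, 11.5 and 15.5 CPM in blood and 1.16, 0.835 and 0.745 CPM in spleen, and Dscam, a neuronal adhesion molecule, 0.138, 0.0257 and 0.0655 CPM in blood and 2.95, 3.57 and 5.02 CPM in spleen. The hyaluronan scavenger receptor Stab2, a gene of splenic sinus endothelium, stood at 0.0550, 0.0514 and 0.109 CPM in blood against 19.1, 26.8 and 37.3 CPM in spleen (difference -8.50, SE 0.90, adjusted p = 0.00129). Of the 13 tested genes of splenic stroma and endothelium, Col1a2 and Col3a1, fibrillar collagens, were called higher in blood (1 of them without splenic library 1 or 2) and Stab2 higher in spleen, and the list summed to 7.16 to 10.6 CPM in blood and 25 to 47.0 CPM in spleen. The part of these cells in the level of Stab2 or Vcam1 was not tested. Ceacam2, Ceacam10 and Ceacam16, members of a gene family in which the counts of some close copies may be split, were called higher in spleen. Each lost that call in 10 or more of the 12 fits.

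Over all features tested, 3.86% were called higher in blood and 3.49% higher in spleen. The counts below of receptors in blood and of ligands in spleen were near these shares. Among 23 chemokine receptors, 1 was called higher in blood and 5 higher in spleen, with a median of -0.99, and 1 call was held. The count in spleen was 1 without splenic library 1, 2 without splenic library 2 or 3, blood library 1 or 3 or resected blood library 1, and 3 without resected splenic library 1 or 2 or resected blood library 2. That gene was Ccr3, a receptor for eotaxins known from eosinophils, at 1.35, 1.62 and 1.05 CPM in blood and 26.2, 52.6 and 60.7 CPM in spleen (difference -5.12, SE 0.83, adjusted p = 0.00668), with no overlap. Ccr6, the receptor for CCL20, measured 14.6, 18.2 and 5.57 CPM in blood and 92.7, 82.2 and 59.4 CPM in spleen (-2.61, adjusted p = 0.0119), a call lost without splenic library 1 (-2.37). Ccr9, the CCL25 receptor and the call in the blood direction, stood at 21.0, 18.7 and 23.0 CPM in blood and 4.46, 8.31 and 6.81 CPM in spleen (1.68, adjusted p = 0.0218). Its call was lost without splenic library 1 (1.57), splenic library 3 (1.81) or blood library 1 (1.71). Ccr10 (-2.50) and Cxcr2 (-3.24), the neutrophil receptor for CXCL1 whose counts may mix with those of its neighbour Cxcr1, were called in 4 and 3 of the 12 fits without 1 library. Cx3cr1, the fractalkine receptor of nonclassical monocytes, measured 53.7, 51.9 and 17.4 CPM in blood and 11.2, 13.5 and 31.3 CPM in spleen, so the tissues overlapped (1.13, adjusted p = 0.196), and Ccr2, the receptor for exit from marrow, overlapped as well (0.64, adjusted p = 0.397). Among 27 chemokine ligands, 7 were called higher in blood and 1 higher in spleen, 4 of them held: the platelet chemokines Pf4 and Ppbp (4.62 and 4.27), the neutrophil attractant Cxcl1 (4.86) and the monocyte attractant Ccl7 (4.28). The count in blood was 4 without any of the splenic libraries or blood library 1, and 6 without blood library 3. Cxcl1 was at 18.6, 18 and 9.59 CPM in blood and 0.358, 0.668 and 0.553 CPM in spleen, with no overlap. Of 13 genes of egress and retention, the ADP receptor P2ry13 (-4.30) and the sphingosine-1-phosphate receptor S1pr3 (-4.45) were called higher in spleen and held, the ADP receptor P2ry12 (1.53) was called higher in blood, and 10 were not called, with a median of -0.46. The call of P2ry12 was lost without any splenic library, blood library 1 or 2 or resected blood library 1 or 2. S1pr3 measured 1.73, 3.57 and 0.874 CPM in blood against 32.1, 38.3 and 64.3 CPM in spleen. The study named 22 chemokine receptors and adhesion genes for the comparison in intact mice. The study gave Ccr4, Ccr9 and Cx3cr1 as higher in blood and the others as higher in spleen. Its criterion is not given in the sources used here. Of these 22 genes 11 were called here, 1 higher in blood and 10 higher in spleen, and 11 were not called. Each call was in the study's direction, and only those of Ccr3, Vcam1, Stab2 and Dscam were held. Those not called were Ccr1, Ccr1l1, Ccr4, Ccr8, Cxcr1, Cx3cr1, Vcan, Icam2, Icam4, Icam5 and Ncam1. Their differences also had the study's sign, apart from Icam2, which was level between the tissues. Among them Cxcr1, Cx3cr1, Vcan and Icam2 overlapped between the tissues.

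Complement and macrophage polarization genes were called in both directions, more of them higher in blood. Of 23 complement genes, 7 were called higher in blood and 3 higher in spleen, with 8 and 3 without blood library 3. Over all features tested, 3.86% were called higher in blood and 3.49% higher in spleen. The held calls in blood were C1s1 (3.42), a protease of the first component, C4a and C4b, the fourth component, C3ar1 (4.01), the receptor for C3a, and Vsig4, and in spleen C2 (-2.20), a protease of the classical convertase, and C6. C4b measured 422, 163 and 239 CPM in blood and 12.3, 3.24 and 1.28 CPM in spleen (difference 5.61, SE 0.79, adjusted p = 0.00366), but C4a and C4b are near-identical copies and their counts may be split between them. Among 12 genes of macrophage polarization, 4 were called higher in blood, 1 higher in spleen and 7 were not called. Of the calls 2 were held, with 2 called in blood without any of the splenic libraries. Arg1, called higher in blood and not held, measured 3.80, 0.719 and 72.0 CPM in blood libraries 1 to 3. Retnla, the secreted protein RELMα that is induced by interleukin-4, stood at 525, 481 and 96.1 CPM in blood and 0, 0.188 and 0.0213 CPM in spleen (difference 12.29, SE 1.30, adjusted p = 0.00129). Mgl2, a lectin of macrophages and dendritic cells, measured 38.5, 26.5 and 5.68 CPM in blood and 1.14, 0.918 and 0.766 CPM in spleen (4.64, adjusted p = 0.00395). Both genes were lowest in blood library 3 among the blood libraries and still did not overlap with spleen. Of 16 genes of apoptotic cell clearance, 4 were called in each direction, with 2 in blood without any splenic library and 2 in spleen without any intact library or resected blood library 2, and the held ones were Pros1 (2.75), the bridging protein S, in blood and Mertk and Stab2 in spleen.

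Immediate early genes respond within minutes to stimulation and also to handling of tissue. Over all features tested, 3.86% were called higher in blood and 3.49% higher in spleen, and the count of immediate early genes in blood was near that share. Of 26 tested, 10 were called higher in spleen, 1 (Nr4a3, not held) higher in blood and 15 were not called, with a median of -0.92, and 3 of the calls in spleen were held, which were also the 3 called with the 6 intact libraries alone. The count in spleen fell to 3 without blood library 1, to 4 without splenic library 1 or 3, to 5 without splenic library 2 and to 6 without resected blood library 1, and it was 8 without blood library 3. Fos measured 316, 415 and 109 CPM in blood and 1710, 1819 and 3274 CPM in spleen (difference -3.02, SE 0.54, adjusted p = 0.0103). Egr1 measured 98.6, 117 and 53.3 CPM in blood and 1059, 859 and 1671 CPM in spleen (difference -3.74, SE 0.43, adjusted p = 0.00178), and its relative Egr3 differed by -3.28. These transcription factors did not overlap between the tissues, and neither did Jun, at 415, 529 and 238 CPM in blood and 1098, 1315 and 3167 CPM in spleen (-2.24, adjusted p = 0.0156), whose call was lost without blood library 1 (-2.21). Digestion with collagenase was described for the spleen only, and its part in these values was not tested. Il1b, the cytokine interleukin-1β, stood at 71.5, 124 and 20.9 CPM in blood and 475, 707 and 530.0 CPM in spleen (-2.98, adjusted p = 0.0240), a call lost without any of the splenic libraries or blood library 1. Of 11 genes of MHC class II, 2 were called higher in spleen, with a median of -1.27, and H2-Eb2 was held (-3.02). It was the only one called without any intact library, resected splenic library 2 or resected blood library 1 or 2. That list summed to 2006 to 7889 CPM in blood and 12551 to 14125 CPM in spleen, ranges that did not overlap. None of 24 interferon-stimulated genes and none of 11 Fc receptor genes was called, and 4 of 18 Toll-like receptor genes were called higher in spleen without any being held, 0 without splenic library 1 and 1 or 2 without each other library. Without resected splenic library 3, 1 Fc receptor gene was called, without resected splenic library 1, 1 interferon-stimulated gene, and without blood library 3, Ifit2 and Rsad2, both interferon-stimulated, were called higher in blood.

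Markers of lymphocytes, granulocytes, platelets and red cells moved between the tissues as well, and their part in the other differences was not tested. Over all features tested, 3.86% were called higher in blood and 3.49% higher in spleen. Of 15 T cell genes, 11 were called higher in blood and 0 higher in spleen, with a median of 2.60 (2.18 without blood library 3, with 11 again called), and the list summed to 2158 to 4823 CPM in blood and 315 to 722 CPM in spleen. The count was 6 without splenic library 1 and 7 without splenic library 3, and the 6 held genes were Bcl11b, Cd247, Cd28, Cd4, Lef1 and Tcf7. Tcf7, a transcription factor of naive T cells, measured 561, 524 and 1113 CPM in blood and 61.1, 125 and 35.6 CPM in spleen (3.31, adjusted p = 0.00917). Of 14 platelet genes, 12 were called higher in blood, 10 of them held, with a median of 3.85 (4.32 without blood library 3, again with 12) and sums of 167 to 601 CPM in blood and 80.4 to 185 CPM in spleen, ranges that overlapped. Gp5, part of the platelet receptor for von Willebrand factor, measured 15.1, 11.9 and 5.46 CPM in blood and 0.715, 0.459 and 0.511 CPM in spleen (4.26, adjusted p = 0.00107). Platelet genes include Itga2b, Pf4 and Ppbp named above. All 6 haemoglobin genes tested were called higher in blood, with a median of 7.45 (7.28 where those under the counting limit were put at their bound), and 5 were held, while Hbq1b lost its call without splenic library 1. Among other erythroid genes, Alas2, Bnip3l and Bpgm, which are kept in late red cells and reticulocytes, were called higher in blood, and 4 were called higher in spleen, of which Klf1, Rhag and Car1, genes of earlier erythroid cells, were held. Klf1, the erythroid Krüppel-like factor, measured 0.358, 0.565 and 0.481 CPM in blood and 7.24, 4.32 and 17.8 CPM in spleen (-4.37, adjusted p = 0.0104), the reverse of Alas2, the haem synthesis enzyme, at 7831, 5452 and 2315 CPM in blood and 17.2, 13.6 and 71.1 CPM in spleen (7.26, adjusted p = 0.00297).

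Of the plasma cell genes, some were called higher in spleen and none higher in blood, beside 3.49% and 3.86% of all features. Jchain, which joins the chains of polymeric IgA and IgM, measured 4.05, 2.54 and 3.84 CPM in blood and 2673, 1862 and 2486 CPM in spleen, and had the smallest p-value of all features (difference -9.39, SE 0.31, adjusted p = 4.22e-07). Derl3, part of the degradation machinery of the endoplasmic reticulum, was at 1.05, 1.46 and 1.05 CPM in blood and 35.3, 27.1 and 32.1 CPM in spleen (-4.73, adjusted p = 5.84e-05), and Tnfrsf17, the survival receptor BCMA, had 3 counts or fewer in each blood library and was at least 36.1-fold lower there. Of the 9 plasma cell genes, 5 were called higher in spleen and these 3 were held, which were also the calls without any library other than blood library 2 and resected blood library 3, and the list summed to 275 to 697 CPM in blood and 3134 to 4250 CPM in spleen. Of 15 B cell genes, Cd22 and Cr2 were called higher in spleen and neither was held, Cr2 losing its call without any splenic library or blood library 1 and Cd22 in 11 of the 12 fits. The list summed to 1064 to 4162 CPM in blood and 7442 to 8678 CPM in spleen. Of 17 neutrophil genes, 7 were called higher in spleen, 3 or 4 without any library other than blood library 2, resected splenic library 3 and resected blood library 3 (3 without blood library 3), with sums of 165 to 596 CPM in blood and 1427 to 2410 CPM in spleen. The held ones, Ltf (-2.62), Camp (-2.97) and Ly6g (-2.42), are granule and surface genes of neutrophils, and Ltf, lactoferrin, measured 26.3, 13.7 and 13.8 CPM in blood and 156, 89.3 and 84.7 CPM in spleen. Of 9 eosinophil genes 3 were called higher in spleen, of which Ccr3 was held and was the only one called without any library other than blood library 1 and resected blood libraries 1 and 3. None of 11 natural killer cell genes was called, and their sums overlapped at 173 to 477 CPM in blood and 123 to 227 CPM in spleen. Of 14 genes of conventional dendritic cells, 5 were called higher in spleen, 1 to 3 without any library other than resected splenic library 3 (3 without blood library 3), with the receptor Flt3 held (-1.88), and 1, Clec10a, was called higher in blood without being held.

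**Figure D4:**
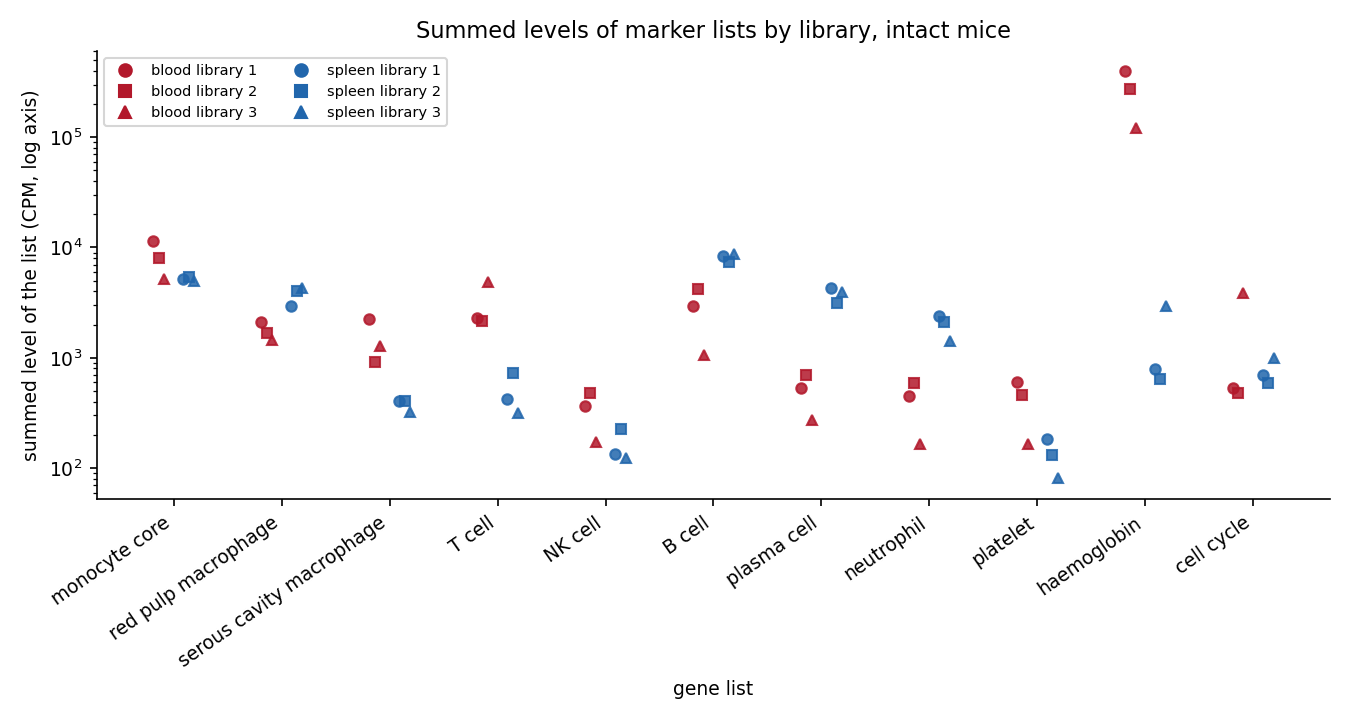
Summed level (CPM, log axis) of cell type marker lists in each intact library, blood and spleen side by side. T cell and haemoglobin sums were higher in each blood library and B cell, plasma cell and neutrophil sums in each splenic library, without overlap.

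Further genes were named by rank among called genes with a symbol that reached a mean of 10 CPM in the higher tissue and did not overlap. Those with the smallest p-values in blood included Ahnak, a large scaffold protein under the plasma membrane, at 2034, 2483 and 1693 CPM in blood and 246, 335 and 333 CPM in spleen (difference 2.77, SE 0.27, adjusted p = 0.000807). Fgfr1, a receptor for fibroblast growth factors, stood at 105, 73.7 and 40.8 CPM in blood against 5.05, 6.18 and 4.53 CPM in spleen (3.80, SE 0.32, adjusted p = 0.000362), and Pmp22, a membrane protein known from myelin, differed by 6.93. Smaller but tight differences were those of Rbpj, the transcriptional mediator of Notch signals, at 1.60 (SE 0.16), and of Socs6, a suppressor of cytokine signalling, at 1.18 (SE 0.12). Socs6 was at 56.2, 56.6 and 57.6 CPM in blood and 26.7, 26.8 and 21.8 CPM in spleen, with no overlap. On the side of the spleen, Slc45a3 measured 0.138, 0.128 and 0.284 CPM in blood and 35.6, 70.8 and 68.1 CPM in spleen (-8.25, SE 0.54, adjusted p = 0.000154). Kcnj16, a potassium channel subunit, had 3 counts or fewer in each blood library and 12.6, 21.2 and 18 CPM in spleen, at least 209-fold lower in blood. Postn, the matrix protein periostin, was at least 154-fold lower in blood by the same limit, Epb41l3, a membrane skeleton protein, differed by -5.98 and the semaphorin Sema6d by -4.58. By size of the difference in blood, Retnla ranked first, followed by D430041D05Rik, Syt13 and then Fcrls. Fcrls is an Fc receptor-like protein and stood at 169.6, 167 and 29.7 CPM in blood and 0.0842, 0.209 and 0.170 CPM in spleen (9.60, adjusted p = 0.00132). Of the 12 genes ranked by size in blood, 7 rested on blood library 3: D430041D05Rik, Syt13, Aqp11, 2810459M11Rik, Nwd1, Arg1 and Timp3. Syt13, for instance, measured 524 CPM in blood library 3 and 1.90 and 1.03 CPM in blood libraries 1 and 2.

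The same tissue contrast was available 24 h after 70% liver resection, in separate libraries. There 2648 features were called, or 13.2%, with 1264 higher in blood (6.28%) and 1384 higher in spleen (6.87%). Of the 1480 called in intact mice, 875 were called after resection too, 862 of them in the same direction and 13 in the opposite one. Both contrasts came from the same fit and estimate of spread, so the calls in intact and resected mice were not independent. For the blood direction the shared calls were 490, which is 63.0% of the intact and 38.8% of the resected list, and for spleen 372, which is 53.0% and 26.9%. The markers were called in both states, with Prg4 at 10.73, Serpinb2 at 9.26, Vcam1 at -8.07 and Itgad at -11.23 after resection, and the test of the change between the states gave adjusted p = 0.0580, 0.0853, 0.213 and 0.175. Of the serous cavity list 18 genes were called higher in blood after resection, of the red pulp list 10 higher in spleen, and of the T cell list 9 higher in blood. The tissue difference itself was called as changed for 57 features (0.283%), 19 of them among the 1480. Of those 19, 12 were higher in spleen in intact mice and all of these moved toward blood after resection, and 7 were higher in blood, 4 moving further and 3 back. The intact values that selected these genes also enter the change, so its direction is partly set by the selection. Mertk was among the 19, with the tissue difference going from -2.99 to -0.36 (difference of the differences 2.63, SE 0.37, adjusted p = 0.0334). Its blood level was 7.57 ± 1.95 CPM (SD, n = 3) in intact and 82.7 ± 11.6 CPM in resected mice. Rarb moved from 3.03 to 6.21 (3.18, SE 0.50, adjusted p = 0.0433). Mmp13, a collagenase of matrix turnover, was called higher in spleen in intact mice, where it was at least 7.50-fold lower in blood, and higher in blood after resection (2.42), and Tgm2, tissue transglutaminase, likewise at -1.65 and 1.33. Tgm2 lost its call in intact mice without splenic library 1 (-1.56).

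**Figure D5:**
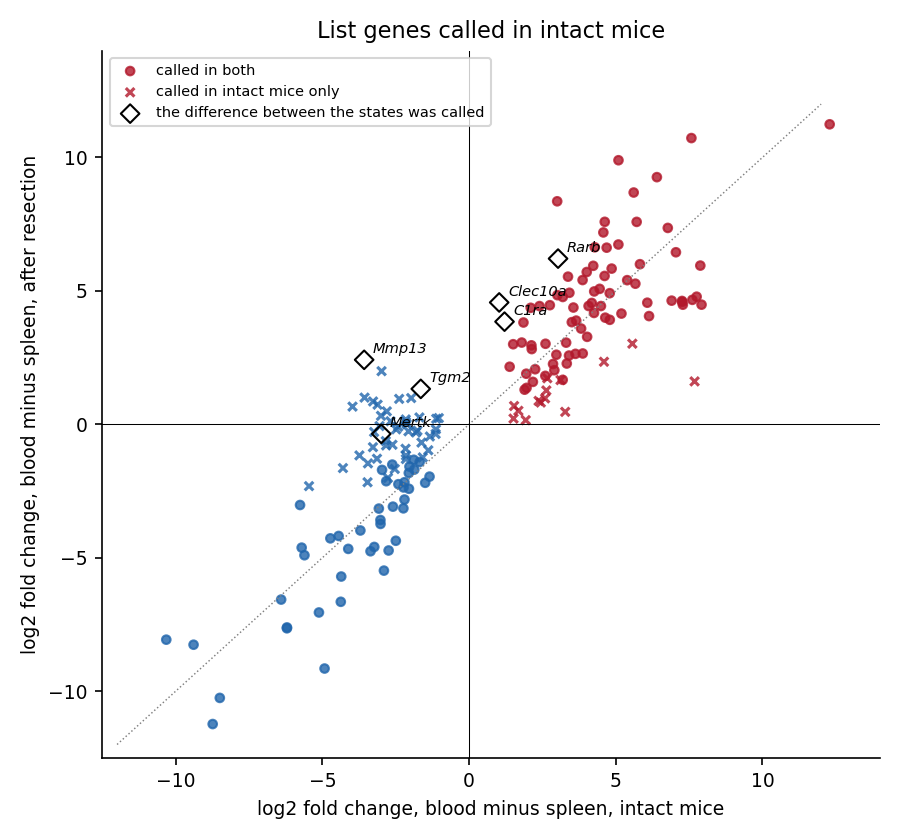
Log2 difference of blood over spleen in intact mice (horizontal) against the same 24 h after resection (vertical) for the 183 list genes called in intact mice, with crosses for genes not called after resection. Of these, 124 were called in both states, 122 in the same direction, and the 6 genes in black diamonds had a tissue difference called as changed.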

How the data were processed

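CD115+ monocyte libraries were made as strand-specific mRNA libraries from pools of mice. The labels name a DNBSEQ library and the methods an Illumina HiSeq instrument, and the submitters' processing notes name STAR and GRCm39 without a version or role. For every library the authors deposited a file of estimated counts, holding 67088 entries under gene symbols or transcript accessions. The counting tool and annotation are not given in the sources used here. The 2558 entries without a gene, which took 2.12% to 3.85% of the counts of the intact libraries, entered neither the library sizes nor the tests. Of 40274 accessions, 25340 were matched to a symbol in the RefSeq gene table and summed with it, 14934 stayed as they were, and the resulting 52553 features were rounded to whole counts.

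Features passing edgeR's filterByExpr (20135, of which 15680 with a symbol) were fitted over all 12 libraries and 4 groups with TMM factors and the robust quasi-likelihood test of edgeR 4.0.16 in R 4.3.3, with Benjamini-Hochberg adjustment over all features. The tissue difference was tested in intact mice, in resected mice, and between the states as an interaction. P-values measure the spread among pooled libraries. Where no library of a tissue exceeded 3 counts for a gene, its fold is given as a bound. The estimation was run on simulated counts with a smaller spread between libraries than was fitted here, so that run does not cover the spread of these data.

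Named were the 4 markers, members of gene lists where a list is described, chemokine receptors and adhesion genes named by the study for this comparison, and, among called genes with a symbol, no overlap and a mean of 10 CPM or more in the higher tissue, the 12 of smallest p and the 12 of largest difference per direction, with the 5 of highest mean. The members and lists were chosen with earlier results of these data known. Of the 12 genes ranked by p or difference in each direction, those described in the text are a selection made after their values were seen. Alternatives were RLE factors, DESeq2 1.42.0, other count filters, entries as deposited, no haemoglobin genes, a replicate block, the 6 intact libraries alone and leaving out each library. Some values of the erythroid list are not reported here.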

Additional observations from a re-analysis of the deposited data

Results flagged for a closer look

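In 6 of the list genes called in intact mice the tissue difference itself differed between intact and resected mice by the interaction test of edgeR, adjusted over all features. Groups of 3 libraries were too small for the test for single outlying libraries. The change, as log2 of blood over spleen after resection minus that in intact mice, was 3.54 for Clec10a (adjusted p = 0.0215), 2.64 for C1ra (0.0317), 2.63 for Mertk (0.0334), 2.97 for Tgm2 (0.0334), 5.99 for Mmp13 (0.0368) and 3.18 for Rarb (0.0433). The value of Mmp13 is a fitted one that depends on the prior count, since its intact blood libraries were at the counting limit.

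The collagenase Mmp13 and the transglutaminase Tgm2 changed direction. Mmp13 had 3 counts or fewer in each intact blood library, at least 7.50-fold lower than in spleen, and averaged 3.67 ± 2.62 CPM in blood and 0.684 ± 0.110 CPM in spleen after resection (SD, n = 3). Tgm2 averaged 32.0 ± 6.61 CPM in intact blood and 559 ± 246 CPM in resected blood, against 100.3 ± 7.30 and 223 ± 36.8 CPM in spleen. Mertk averaged 60.3 ± 15.3 CPM in intact and 106 ± 22.3 CPM in resected spleen.

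Clec10a, C1ra and Rarb were higher in blood in both states, by 1.03, 1.21 and 3.03 in intact and by 4.57, 3.85 and 6.21 in resected mice. The call of C1ra in intact mice was lost without splenic library 1 (1.20), splenic library 2 (1.33) or blood library 1 (0.89), that of Clec10a in 9 of the 12 fits without 1 library, where its value ran from 0.86 to 1.21, and that of Tgm2 without splenic library 1. Mmp13, Rarb and Mertk were called without any single library.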

How the results depend on the processing

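None of the 1480 calls was made in the opposite direction under any alternative, while their number moved. Over the fits leaving out 1 library it ran from 531 to 1494, with 306 to 1001 higher in blood and 225 to 586 higher in spleen. DESeq2 called 2565 (1380 and 1185). With the replicate block 849 were called (397 and 452), with the 6 intact libraries alone 796 (410 and 386), and with the replicate block in those 6 libraries alone 1 (0 in blood and 1 in spleen, Jchain). Without the low-count filter 1080 were called (664 and 416). The cause was not tested, beyond the fewer libraries of the smaller fits. Same-numbered blood and splenic libraries correlated at 0.000203, 0.0505 and 0.0345 in their deviations, and differently numbered ones at -0.0445 to 0.00209. With 3 libraries per tissue these values cannot decide whether the numbers pair the libraries. The main fit took no pairing. RLE factors gave 1406 (829 and 577), 10 counts in every library 1054 (569 and 485), no limit on fold 1846 (908 and 938), entries as deposited 1295 (789 and 506) and no haemoglobin genes 1434 (878 and 556). The share of calls higher in blood thus moved from 52.6% to 59.0% with RLE factors, 60.9% with entries as deposited and 61.2% without haemoglobin genes. Of 207 named or listed called genes, 148 were called with the replicate block and 135 of 204 with the 6 intact libraries. Icam2, which was not called, was -0.0001 and turned to 0.0756 with RLE factors or DESeq2, 0.0657 without the filter, 0.0017 with 10 counts in every library, 0.0741 with entries as deposited, 0.113 without haemoglobin genes and 0.0036 in the 6 libraries, and ran from -0.0808 to 0.175 without 1 library. The haemoglobin difference ran from 19.2 to 29.2 percentage points without 1 library. Depth limits features at or under 3 counts: 127 called features were there in blood and 106 in spleen.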
